A study of Rattus norvegicus with 63 samples.

Results

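Aldehyde dehydrogenases are the enzymes that oxidise reactive aldehydes to carboxylic acids, and 8 genes of the family were followed here across 15 compounds given to rats: Aldh1a1, Aldh2, Aldh3a1, Aldh3a2, Aldh6a1, Aldh7a1, Aldh9a1 and Aldh1l1. The members were chosen by their gene symbol in the annotation of the array, and where several probe sets carry a symbol, the one of highest average across the 63 arrays stands for the gene. All 8 were found, among 10411 genes with a single symbol and 15866 probe sets.

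The study set out to tell genotoxic carcinogens (GC), non-genotoxic carcinogens (NGC) and non-hepatocarcinogens (NC) apart from liver profiles. Livers came from male Wistar Hanover rats, 8 to 10 weeks old, dosed by gastric gavage, and each of the 21 groups holds 3 arrays, 1 per animal. In each treated group the 3 animals were taken from 5 for showing some change of the liver on histopathology, so the treated groups stand for animals with a visible response. The values are log2 intensities after Robust Multi-chip Average (RMA) normalization of Affymetrix RAE230A arrays.

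Control set 1 (vehicle methylcellulose, MC1) served acetamide (AA, 3000 mg/kg/day), dehydroepiandrosterone (DHEA, 600 mg/kg/day) and methylcarbamate (Mcarb, 400 mg/kg/day), each given for 14 days. The same set served methapyrilene HCl (MPy, 60 mg/kg/day) and thioacetamid (TAA, 19.2 mg/kg/day), given for 7 days, and Wy-14643 (Wy, 60 mg/kg/day), given for 3 days. Control set 2 (methylcellulose, MC2) served cefuroxime (CFX, 250 mg/kg/day) and nifedipine (Nif, 3 mg/kg/day) for 14 days. Control set 3 (corn oil, CO3) served C.I Direct Black (CIDB, 146 mg/kg/day) and dimethylnitrosamine (DMN, 4 mg/kg/day), and control set 4 (corn oil, CO4) served cyproterone acetate (CPA, 100 mg/kg/day). CIDB and DMN were given for 7 days and CPA for 14 days. Control set 5 (methylcellulose, MC5) served ethionine (ETH, 200 mg/kg/day, 14 days), diethylstilbestrol (DES, 10 mg/kg/day, 3 days) and piperonylbutoxide (PBO, 1200 mg/kg/day, 3 days). Control set 6 (methylcellulose, MC6) served phenobarbital sodium (PB), given for 14 days. Its dose is missing from the labels and from the study's table of compounds, though the study's methods give one. In places the study names carboxymethyl cellulose for the vehicle that the labels call methylcellulose. By the labels CO3 was dosed for 7 days and every other control set for 14 days, so by the labels DES, PBO, Wy, MPy and TAA differ from their controls in days of dosing as well as in compound, although the study's methods speak of time-matched controls.

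Aldehydes reach the liver with food and drink and arise inside hepatocytes from retinol, lipids, amino acids and amines, and they damage proteins and DNA when they build up. Family members differ in preferred substrates and in compartment, though some share a compartment. Aldh1a1 oxidises retinaldehyde in the cytosol, Aldh2 acetaldehyde in mitochondria, and Aldh3a1 and Aldh3a2 aromatic and long-chain fatty aldehydes. Aldh6a1, Aldh7a1 and Aldh9a1 act in the breakdown of valine and of lysine and choline and in the synthesis of carnitine, and Aldh1l1 oxidises 10-formyltetrahydrofolate, a carrier of one-carbon units.

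RefSeq promoter windows of build GRCr8, 250 bases before to 50 after the annotated start, were matched for 6 of the 8 members, which leaves out Aldh2 and Aldh3a1. The windows of 3 members are shown because their responses differ most among compounds: Aldh1a1 (chr1:227537370-227537669, + strand), Aldh3a2 (chr10:46448286-46448585, - strand) and Aldh1l1 (chr4:124616970-124617269, + strand). Each reads 5′ to 3′ on the strand of the gene, and capitals mark GCGTG, the core that the Ah receptor is known to bind, and CCAAT, the core known for the factor NF-Y, on either strand.

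Aldh1a1: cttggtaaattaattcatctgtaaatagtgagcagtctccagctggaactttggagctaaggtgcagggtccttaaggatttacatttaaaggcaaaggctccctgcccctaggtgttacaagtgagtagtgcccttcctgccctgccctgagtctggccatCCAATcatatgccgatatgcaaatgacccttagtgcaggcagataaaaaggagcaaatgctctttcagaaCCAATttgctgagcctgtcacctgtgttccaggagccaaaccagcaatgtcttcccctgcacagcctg
Aldh3a2: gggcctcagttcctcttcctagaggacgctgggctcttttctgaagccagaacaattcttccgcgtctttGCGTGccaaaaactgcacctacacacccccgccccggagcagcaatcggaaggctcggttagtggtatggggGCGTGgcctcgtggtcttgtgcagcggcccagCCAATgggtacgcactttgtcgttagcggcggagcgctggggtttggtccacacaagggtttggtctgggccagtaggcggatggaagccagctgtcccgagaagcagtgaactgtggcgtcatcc
Aldh1l1: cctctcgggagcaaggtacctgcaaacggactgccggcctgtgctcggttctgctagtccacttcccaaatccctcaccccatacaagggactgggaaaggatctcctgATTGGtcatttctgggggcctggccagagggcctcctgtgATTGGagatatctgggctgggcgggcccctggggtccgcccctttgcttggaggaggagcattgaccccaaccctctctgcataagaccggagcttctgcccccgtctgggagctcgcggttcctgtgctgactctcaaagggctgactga

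CCAAT or its reverse complement was in all 6 windows searched and in 37.5% of the 33469 rat promoter windows. GCGTG was in the windows of Aldh3a2, Aldh7a1 and Aldh9a1 and in 29.7% of all windows. The window of Aldh1a1 held CCAAT at 88 and 18 bases before the start and lacked GCGTG. The core known for Sp1, GGGCGG, was in 4 of the 6 windows and 33.1% of all. Matches of different motifs do not overlap in the windows shown, and a match of letters is a description and not a binding site.

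Hepatocyte transcripts were high on all arrays: the albumin gene Alb averaged 15.02 and the clotting gene Fgb 13.91 on the log2 scale. Array medians lay between 7.42 and 7.51, no columns were identical, and the mean correlation of an array with the others of its group was at least 0.989. The lowest was replicate 1 of MC6. These are bulk tissue values, so that fewer cells of a type and less RNA per cell cannot be told apart. A gene was called when limma, fitted over all 63 arrays with Benjamini-Hochberg adjustment over all 15866 probe sets, gave an adjusted p under 0.05. The p-values measure the spread between the animals of a group.

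Across 15 compounds and 8 members there were 120 comparisons, of which 35 were called, 17 up and 18 down. That is 29.2% of the comparisons, against 9.15% over all probe sets and compounds. The 2 shares are not of like sets. The members were chosen with earlier results of these data known. Apart from Aldh3a1 (percentile 24.5), their mean signal lay at percentile 94.4 to 98.9 of all probe sets, dim ones included. In 34 of the 35, all 3 treated arrays lay outside the range of the 3 vehicle arrays. Aldh1a1 accounted for 12 of the 17 rises, Aldh3a2 for 4 and Aldh1l1 for 1. Aldh2, Aldh6a1, Aldh7a1 and Aldh9a1 were called down in 7, 4, 2 and 1 compounds and up in none, and Aldh3a1 was called in none.

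**Figure D1:**
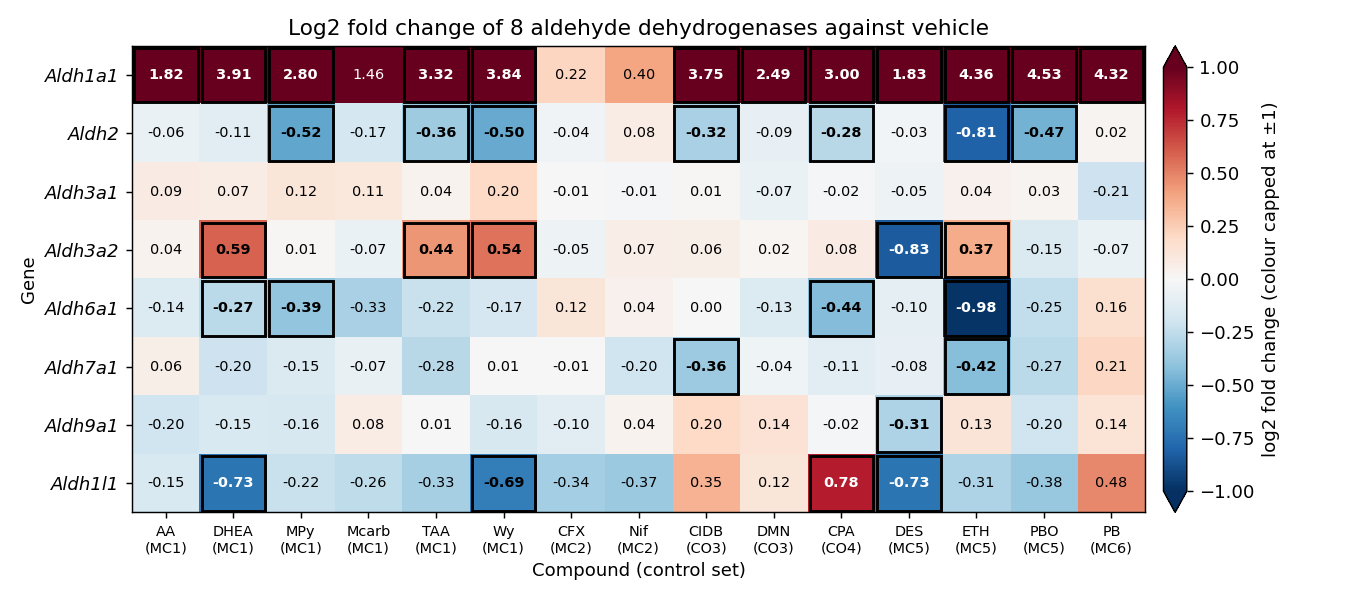
Log2 fold change of each member (vertical axis) against vehicle for each compound (horizontal axis, control set in brackets); numbers give the value, colour is capped at ±1, and a black frame with bold type marks an adjusted p under 0.05. Aldh1a1 is framed for 12 compounds, up to 4.53 under PBO, while Aldh3a1 has no frame.

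By compound, ETH changed the most members, 5 of 8 (2 up, 3 down), where 23.5% of all probe sets were called (11.7% up, 11.8% down). DES called 4 (1 up, 3 down) against 15.5% of probe sets (6.77% up, 8.72% down). PBO called 2 (1 up, 1 down) against 14.5% (7.03% up, 7.46% down). These 3 compounds share the MC5 arrays.

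Of the compounds that share MC1, DHEA called 4 members (2 up, 2 down) against 17.7% of probe sets (9.3% up, 8.37% down). Wy also called 4 (2 up, 2 down), against 12.9% (6.5% up, 6.45% down). TAA called 3 (2 up, 1 down) against 6.4% (3.15% up, 3.25% down). The 2 rises under DHEA, Wy and TAA were Aldh1a1 and Aldh3a2 each time. MPy called 3 (1 up, 2 down) against 6.32% (3.28% up, 3.04% down), and AA called 1, up, against 4.66% (2.74% up, 1.92% down). Mcarb called none, against 1.07% (0.782% up, 0.284% down), although 2 members had an unadjusted p under 0.05 in limma.

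With corn oil, CPA called 4 (2 up, 2 down) against 7.85% of probe sets (3.11% up, 4.73% down), and CIDB called 3 (1 up, 2 down) against 13.9% (8.14% up, 5.75% down). DMN called 1, up, against 3.23% (2.31% up, 0.92% down). PB, with its own methylcellulose set, called 1, up, against 1.35% (0.964% up, 0.384% down). The single rise under DMN, PB and AA was Aldh1a1.

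The non-hepatocarcinogens CFX and Nif called no member. For CFX a single probe set in all was called, 0.0063% (0.0063% up, 0% down), and for Nif 8.46% were called (3.78% up, 4.68% down). In each of the pair 1 member, Aldh1l1, had an unadjusted p under 0.05 in limma, with a log2 fold change of -0.34 for CFX and -0.37 for Nif. Both share the MC2 arrays, and for Nif the count was 1 in the fit on the 6 arrays alone and with array weights, each time Aldh1l1 (adjusted p = 0.0122 and 0.0172 in limma).

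Aldh1a1, the cytosolic retinaldehyde dehydrogenase, rose in 12 of 15 compounds, by 3.52-fold to 23.2-fold. In all, 0.0189% of probe sets were called in 12 or more compounds. It also varied widely between vehicle animals: the 18 vehicle arrays, of both vehicles and all control sets, spanned 7.52 to 10.25 with a median of 9.05. The means of the control sets ran from 8.06 (MC6) to 9.73 (CO3). The pooled SD within groups was 0.60, larger than that of 99.6% of probe sets, and it gave every Aldh1a1 fold change a standard error of 0.46.

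On the arrays of MC5 Aldh1a1 read 9.37, 7.92 and 8.25. It read 13.19, 13.26 and 12.70 under PBO (log2 fold change 4.53 ± 0.46, SE, n = 3 and 3; adjusted p = 5.32e-10 in limma) and 12.78, 13.00 and 12.86 under ETH (4.36 ± 0.46; adjusted p = 2.67e-10). Every PBO and ETH array lay above every MC5 array, by over 3 on the log2 scale. Under DES the values were 11.34, 9.26 and 10.43, a rise of 1.83 ± 0.46 (adjusted p = 0.00384 in limma). The lowest DES array lay below the highest vehicle array, and without DES replicate 1 the call was lost (1.33, adjusted p = 0.074 in limma).

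The MC6 arrays read 7.80, 7.52 and 8.85, the lowest group mean of the 21. PB raised Aldh1a1 to 12.51, 12.44 and 12.20 (4.32 ± 0.46, adjusted p = 9.86e-09 in limma). The PB arrays did not overlap with those of the vehicle. PB left 1.35% of all probe sets called, and Aldh1a1 was the 1 member among them.

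The MC1 arrays read 9.51, 8.21 and 8.60. DHEA arrays read 12.75, 12.66 and 12.63 (3.91 ± 0.46, adjusted p = 1.06e-08 in limma) and Wy arrays 12.06, 13.01 and 12.77 (3.84 ± 0.46, adjusted p = 1.74e-08). DHEA and Wy are both known to activate PPAR-alpha, the receptor of peroxisome proliferation. TAA arrays read 11.76, 12.16 and 12.35 (3.32 ± 0.46, adjusted p = 3.35e-06 in limma), and MPy arrays 11.54, 11.67 and 11.50 (2.80 ± 0.46, adjusted p = 4.21e-05). None of these 4 groups overlapped with MC1.

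AA arrays read 10.91, 10.60 and 10.24 (1.82 ± 0.46, adjusted p = 0.0145 in limma), above MC1 without overlap. Leaving out AA replicate 1, MC1 replicate 5 or MC1 replicate 6 lost this call (adjusted p between 0.0707 and 0.0825 in limma). Mcarb arrays were split, at 9.21, 9.85 and 11.63, and the mean difference of 1.46 ± 0.46 was not called (95% interval 0.52 to 2.39, adjusted p = 0.12 in limma). Without Mcarb replicate 1 it was 1.97 (adjusted p = 0.0203 in limma).

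With corn oil the CO3 arrays read 9.24, 9.80 and 10.16, and the CO4 arrays 9.98, 9.64 and 8.86. CIDB reached the highest group level of all, with 13.69, 13.32 and 13.44 (3.75 ± 0.46, adjusted p = 2.69e-08 in limma). CIDB also lowered Hbb, a beta-globin gene of red blood cells, by 4.91 on the log2 scale, to 8.72 from 13.62, and both measured erythroid markers were called down, while 2 of 4 macrophage markers were called up. Under DMN 3 of the 4 macrophage markers were called up. Their part in the Aldh1a1 values was not tested. DMN arrays read 12.49, 12.13 and 12.05 (2.49 ± 0.46, adjusted p = 0.000426 in limma), and CPA arrays 12.48, 12.18 and 12.81 (3.00 ± 0.46, adjusted p = 1.25e-05). All 3 groups lay above their vehicle arrays without overlap.

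MC2 had the widest control values, 10.23, 10.25 and 8.32. CFX arrays read 9.58, 9.82 and 10.04 and Nif arrays 9.05, 10.18 and 10.75, both inside or next to that range. The differences were 0.22 (95% interval -0.72 to 1.15) and 0.40 (-0.54 to 1.33), neither of them called, so a change of up to 1.15 or 1.33 lies within the intervals. Because MC2 was the highest of the methylcellulose sets, the choice of controls matters here: against all 12 methylcellulose arrays the Nif difference was 1.26 (adjusted p = 0.0219 in limma). Mcarb was then called as well (1.49, adjusted p = 0.0133).

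**Figure D2:**
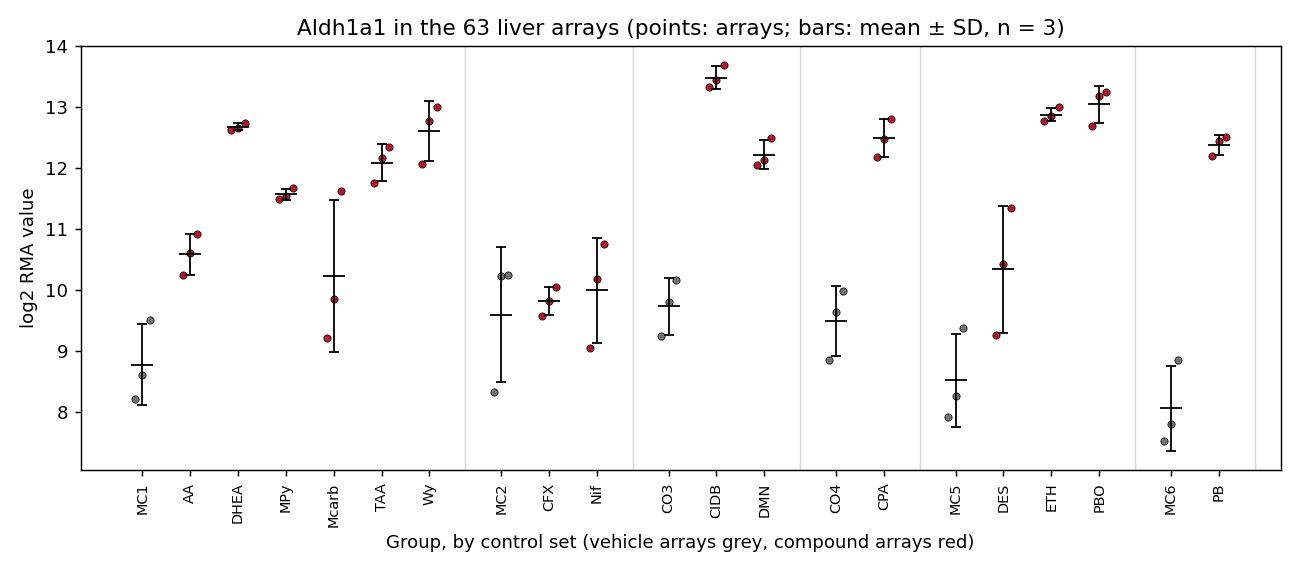
Aldh1a1 on all 63 arrays: the vertical axis gives the log2 RMA value, groups stand on the horizontal axis by control set, points are arrays (vehicle grey, compound red), and bars give mean ± SD (n = 3). CIDB lies highest at a mean of 13.48, DES and Mcarb scatter widely (SD 1.04 and 1.25), and CFX and Nif stand beside their MC2 controls.

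Ordered by mean, the levels of Aldh1a1 ran from CIDB (13.48), PBO (13.05) and ETH (12.88) down to MC1 (8.77), MC5 (8.51) and MC6 (8.06). The arrays of MPy, in place 10 at a mean of 11.57, did not overlap with those of AA, next in order at 10.59, although 1 Mcarb array, at 11.63, lay among them. Within the upper part, PBO overlapped with ETH, and each of DHEA, Wy, CPA, PB and DMN overlapped with its lower neighbour. From AA down to MC6 each neighbouring pair overlapped.

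Among 5 measured biliary and progenitor markers, Epcam, an adhesion protein of bile duct and progenitor cells, was called up in 8 compounds, CIDB, CPA, DHEA, ETH, MPy, PB, TAA and Wy, by 0.71 (ETH) to 1.14 (MPy). Aldh1a1 rose in all 8, and it also rose under AA, DES, DMN and PBO, where Epcam was not called. Krt19, a keratin of bile ducts, was called up under ETH (1.90) alone. In the other compounds with an Epcam call, Krt19 lay between -0.40 (DHEA) and 0.42 (CIDB). Cd24 was called up under CIDB alone (0.45), and Krt7 and Spp1 were called in no compound. The part of these cells in the Aldh1a1 values was not tested.

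A near-identical paralog, Aldh1a7, described as phenobarbital-inducible in rat, has no probe set of its own symbol here. Whether its transcript contributes to the Aldh1a1 probe set was not tested. Aldh1a1 was also one of the genes that the study picked for its class signatures on these arrays, so its direction here is not independent evidence of that choice.

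Of the 23 listed genes of retinoid metabolism, the pathway of Aldh1a1, 18 were measured, and they went both ways. Their median log2 fold change lay between -0.09 (CIDB) and 0.10 (CPA), where the median over all probe sets lay between -0.03 and 0.03. Under DMN, MPy, PB and TAA, compounds in which Aldh1a1 rose, none of the 18 was called. ETH called 3 up and 3 down, led by the retinol dehydrogenase Rdh7 (-0.94), the retinol-esterifying enzyme Lrat (0.63) and the retinaldehyde reductase Dhrs3 (0.47). DES called 1 up and 4 down, among them the retinol dehydrogenase Rdh16 (-1.92) and Dhrs3 (-1.42) and, up, the retinoic acid receptor Rarb (1.11). CPA raised Cyp26a1, which clears retinoic acid, by 1.58, and lowered Lrat (-0.97) and Rdh7 (-0.42), with 1 called up and 2 down.

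DHEA called 2 of the 18 up and 4 down, including Lrat (-1.01), the dehydrogenase Dhrs4 (0.95) and the nuclear receptor Rxra (0.62). Wy called 2 up and 1 down: Dhrs4 (0.84), the binding protein Rbp2 (0.26) and Rdh7 (-0.47). CIDB called 3 up, Dhrs3 (0.39), Rxra (0.36) and the plasma carrier Rbp4 (0.21). PBO lowered 1, Rdh7 (-0.57), and AA raised 1, Rxra (0.51). Nif, in which Aldh1a1 was not called, called 1 up and 2 down.

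Aldh2, the mitochondrial enzyme known for clearing acetaldehyde after alcohol, fell in 7 compounds and rose in none. Its level was high in vehicle animals, 12.40 to 13.06 over 18 arrays with a median of 12.77. Control sets differed by up to 0.36, and 2 of the 7 pairs of control sets were called. That difference is about as large as the called fall under TAA and larger than those under CIDB and CPA. Over the whole array 1.65% of all probe sets were called in at least 7 compounds in either direction.

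The fall was deepest under ETH, where the arrays read 12.13, 12.01 and 12.19 against 12.86, 13.06 and 12.84 in MC5 (-0.81 ± 0.09, SE, n = 3 and 3; adjusted p = 6.11e-10 in limma). PBO arrays read 12.43, 12.38 and 12.53 (-0.47 ± 0.09, adjusted p = 0.000116 in limma). The DES arrays, at 12.76, 12.91 and 12.99, overlapped with the same vehicle arrays (-0.03, 95% interval -0.21 to 0.15).

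Against MC1, at 12.76, 12.64 and 12.80, Aldh2 read 12.32, 12.10 and 12.21 under MPy (-0.52 ± 0.09, adjusted p = 6.20e-05 in limma). Wy arrays read 12.40, 12.16 and 12.12 (-0.50 ± 0.09, adjusted p = 4.54e-05 in limma), and TAA arrays 12.27, 12.49 and 12.37 (-0.36 ± 0.09, adjusted p = 0.00828). All 3 groups lay below MC1. For TAA the call was lost without TAA replicate 1 (-0.30, adjusted p = 0.075 in limma) or MC1 replicate 6 (-0.32, adjusted p = 0.0555). DHEA, which shares the MC1 arrays, gave -0.11 (95% interval -0.28 to 0.07).

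CIDB arrays read 12.40, 12.38 and 12.37 against 12.75, 12.65 and 12.73 in CO3 (-0.32 ± 0.09, adjusted p = 0.00855 in limma). CPA arrays read 12.58, 12.54 and 12.49 against 12.77, 12.90 and 12.78 in CO4 (-0.28 ± 0.09, adjusted p = 0.0428 in limma). Both groups lay below their vehicle without overlap, but the CPA call was lost in 10 of 15 alternatives, among them each of the 6 fits without 1 array. DMN gave -0.09 and PB 0.02, neither called.

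Of 16 listed genes of alcohol, aldehyde and acetate handling beside Aldh2, 13 were measured. Where Aldh2 fell, more of them were called up than down, and this was also so under DHEA without an Aldh2 call. ETH called 5 up and 2 down, led by the alcohol dehydrogenase Adh4 (1.78), the aldo-keto reductase Akr7a3 (1.21) and Acss2 (1.02). Acss2, an acetyl-CoA synthetase, uses acetate and not an aldehyde. PBO called 5 up and none down: Akr7a3 (2.68), the aldehyde oxidase Aox1 (0.99) and the carbonyl reductase Cbr1 (0.78) led. TAA called 4 up and none down, with Akr7a3 (2.31), Adh4 (1.66) and Cbr1 (0.58). CPA called 3 up and 1 down, with Akr7a3 (2.79), Aox1 (0.52) and Akr7a2 (0.50). The medians of the 13 were 0.16 for ETH, 0.07 for PBO, 0.26 for TAA and 0.16 for CPA. Of all probe sets 11.7% were called up and 11.8% down for ETH, and 7.03% and 7.46% for PBO. For TAA these shares were 3.15% and 3.25%, and for CPA 3.11% and 4.73%.

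CIDB called 3 up and 1 down: Akr7a3 (1.14), the ethanol-oxidising cytochrome Cyp2e1 (0.58) and, down, Akr7a2 (-0.44). Wy called 3 up and 2 down, with Adh4 (1.44), the alcohol dehydrogenase Adh7 (1.28) and Cbr1 (0.82) up. MPy called 2 up and none down, Akr7a3 (1.73) and Akr1a1 (0.32). Akr7a3, an aflatoxin aldehyde reductase, is named by the study among the genes of its signatures on these arrays, so its rises are not independent evidence either. The medians were 0.06, 0.10 and 0.00. DHEA, in which Aldh2 was not called, called 5 of the 13 up and none down, with a median of 0.19. Of all probe sets 8.14% were called up and 5.75% down for CIDB, and 6.5% and 6.45% for Wy. For MPy these shares were 3.28% and 3.04%, and for DHEA 9.3% and 8.37%.

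Aldh3a2, the microsomal fatty aldehyde dehydrogenase, went both ways. In vehicle animals it spanned 12.04 to 12.75 with a median of 12.41. Under DHEA the arrays read 12.97, 13.13 and 13.12 against 12.52, 12.41 and 12.53 in MC1 (0.59 ± 0.09, adjusted p = 2.00e-06 in limma). Wy arrays read 12.83, 13.15 and 13.11 (0.54 ± 0.09, adjusted p = 1.11e-05 in limma) and TAA arrays 12.92, 12.86 and 12.99 (0.44 ± 0.09, adjusted p = 0.000908). All 9 arrays lay above MC1.

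With MC5 at 12.67, 12.75 and 12.66, ETH arrays read 13.09, 13.07 and 13.04 (0.37 ± 0.09, adjusted p = 0.00119 in limma). DES arrays read 11.87, 11.79 and 11.93, the lowest 3 of all 63 (-0.83 ± 0.09, adjusted p = 6.23e-10 in limma). The ETH and DES groups lay on opposite sides of MC5, without overlap. MC5 had the highest mean of the control sets for this gene, 12.70. With controls pooled by vehicle the DES fall was -0.61 and the ETH rise 0.59, both called. Set against each other in 1 contrast, the rise under DHEA and the fall under DES differed by 1.42 ± 0.13 (adjusted p = 3.61e-12 in limma). These are the extremes of this gene and were chosen by their values. In the other 10 compounds the change lay between -0.15 (PBO) and 0.08 (CPA).

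The other genes of fatty aldehyde and omega oxidation, 7 measured of 14 listed, moved with the compound. DHEA called 3 up and 2 down, and Cyp4a1 and Cyp4a3, which hydroxylate the omega end of fatty acids, rose by 2.86 and 1.50. Wy called 2 up and 3 down, with Cyp4a1 at 2.80, Cyp4a3 at 1.66 and Cyp4a8 at -0.81. Under DHEA Hacl1, a lyase of alpha-oxidation that yields a fatty aldehyde, rose by 0.77 (adjusted p = 0.0481 in limma). DES called none up and 5 down: Hacl1 (-1.64), the phytanoyl-CoA hydroxylase Phyh (-1.22) and Cyp4f4 (-1.09) fell most. The medians of the 7 were 0.04, 0.29 and -0.62 for DHEA, Wy and DES.

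ETH called 1 of the 7 up, Cyp4a1 (1.14), and 2 down, Cyp4f4 (-0.60) and Cyp4a8 (-0.41). TAA, in which Aldh3a2 rose, called none up and 2 down, Cyp4f4 (-0.91) and Cyp4a8 (-0.62). So Cyp4a1 and Cyp4a3 were called up with Aldh3a2 under DHEA and Wy, Cyp4a1 alone under ETH and neither under TAA.

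Aldh3a1, known from the Ah receptor gene battery and low in normal liver, had a low signal: its mean lies at percentile 24.5 of all probe sets. Arrays ranged from 5.89 to 6.85. No compound was called and none had an unadjusted p under 0.05 in limma, with fold changes between -0.21 (PB) and 0.20 (Wy). Its 95% intervals reached at most 0.42 upward (Wy) and -0.43 downward (PB). Of 7 listed genes of that battery, 5 were measured, and at most 1 was called in any compound. Cyp1a1, the best known target, rose under PBO (2.67 ± 0.46, adjusted p = 3.40e-05 in limma), ETH (2.62 ± 0.46, adjusted p = 1.88e-05) and CIDB (1.78 ± 0.46, adjusted p = 0.0055). The standard error comes from the spread pooled over groups, and the PBO arrays scattered widely (SD 1.81, against 0.47 for ETH and 0.17 for CIDB). Aldh3a1 in these 3 compounds read between 5.89 and 6.48. The other calls in the battery were falls of Cyp1a2, the second CYP1A enzyme of liver, under DMN (-1.30), DES (-1.28), CPA (-1.02) and Wy (adjusted p = 0.0139 in limma). Both are named here after their values were seen.

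Aldh6a1, the methylmalonate semialdehyde dehydrogenase of valine and thymine breakdown, fell in 4 compounds. MC5 read 12.11, 12.17 and 11.98, and ETH arrays 11.07, 11.33 and 10.92 (-0.98 ± 0.09, adjusted p = 1.08e-11 in limma). CPA arrays read 11.48, 11.57 and 11.84 against 12.12, 12.05 and 12.03 in CO4 (-0.44 ± 0.09, adjusted p = 0.00148 in limma). Both groups lay below their vehicle, and the ETH arrays were the lowest 3 of the 63.

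MC1 was even for this gene, at 12.09, 12.08 and 12.12. MPy arrays read 11.80, 11.58 and 11.73 (-0.39 ± 0.09, adjusted p = 0.00469 in limma) and DHEA arrays 11.83, 11.83 and 11.81 (-0.27 ± 0.09, adjusted p = 0.0348). Neither group overlapped with MC1. Without MPy replicate 2 the MPy call was lost (-0.33, adjusted p = 0.0588 in limma), and the DHEA call was lost in 7 alternatives.

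A second probe set of Aldh6a1 gave other answers for some compounds. It fell with the first under ETH (-0.84), CPA (-0.39) and MPy (-0.32). It was called up where the first was not called: AA (0.44), CIDB (0.28), DES (0.50) and PBO (0.71). Under Nif it fell by 1.44 (adjusted p = 5.88e-15 in limma), where the first gave 0.04, and under DHEA it gave 0.15 (adjusted p = 0.353), not called. The control sets differed in it too, lower in MC5 than in MC1 by 0.59, than in MC2 by 0.93 and than in MC6 (MC5 minus MC6 -0.80), all called, and DES and PBO were compared with MC5. The ETH, CPA and MPy falls are thus the ones that both probe sets give, and which transcript each probe set reads was not tested.

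Of 18 listed genes of branched-chain amino acid and propionate catabolism, 15 were measured. Not all lie on the valine route of Aldh6a1: Ivd and Mccc2 act in the breakdown of leucine. ETH called 1 up and 5 down, with the GABA transaminase Abat (-1.14), the propionyl-CoA carboxylase subunit Pccb (-0.87) and the isovaleryl-CoA dehydrogenase Ivd (-0.75) lowest. MPy called 4 down, led by Ivd (-0.58), Abat (-0.42) and Mccc2 (-0.33), and none up. DHEA called 3 up and 1 down: the hydrolase Hibch (1.54) and Bckdha (0.56) rose and Abat fell (-0.74). CPA called 1, Hibch, up (0.66). The medians of the 15 were -0.23, -0.18, -0.01 and -0.13, below the all-probe-set medians of -0.03 for ETH, 0.01 for MPy, 0.01 for DHEA and 0.03 for CPA. PBO called 6 of the 15 down and CIDB, DES and TAA 4 each, without a call of Aldh6a1.

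Aldh7a1, which oxidises the semialdehyde of lysine breakdown, fell in 2 compounds. ETH arrays read 12.37, 12.56 and 12.31 against 12.88, 12.79 and 12.82 in MC5 (-0.42 ± 0.12, adjusted p = 0.00741 in limma). CIDB arrays read 12.26, 12.28 and 12.40 against 12.62, 12.92 and 12.49 in CO3 (-0.36 ± 0.12, adjusted p = 0.0355 in limma). Both lay below their vehicle, but the CIDB call was lost in 4 of 14 alternatives, for instance without CO3 replicate 5 (-0.24, adjusted p = 0.281 in limma).

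Of 7 listed genes of lysine breakdown, 6 were measured. ETH called 1 up and 2 down, the succinyltransferase Dlst (0.65), the glutaryl-CoA dehydrogenase Gcdh (-0.71) and the 2-oxoadipate dehydrogenase subunit Dhtkd1 (-0.71). CIDB called 1 down, Dhtkd1 (-0.58). Their medians were -0.29 and -0.08. DES, DHEA, MPy, PBO, TAA and Wy each called 3 of the 6 down while Aldh7a1 was not called, and DHEA and Wy also called 2 up, Gcdh (0.55 in both) and Dlst (0.28 and 0.24).

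Aldh9a1, the trimethylaminobutyraldehyde dehydrogenase of carnitine synthesis, fell in 1 compound. DES arrays read 12.53, 12.34 and 12.34 against 12.69, 12.81 and 12.64 in MC5 (-0.31 ± 0.10, adjusted p = 0.0328 in limma). The groups did not overlap, yet the call was lost in 7 of 14 alternatives. In the other 14 compounds the change lay between -0.20 and 0.20. The 6 genes of carnitine synthesis and use were all measured, and DES called 1 up, the carnitine palmitoyltransferase Cpt2 (0.44). DHEA and Wy, in which Aldh9a1 gave -0.15 and -0.16, each called 4 of those 6 up (DHEA also 1 down) with medians of 1.33 and 1.45, among them Crat, the carnitine acetyltransferase, at 3.33 and 3.06. Tmlhe and Bbox1, the enzymes of carnitine synthesis itself, were not among these rises. Under DHEA and Wy Tmlhe gave -0.04 and -0.18, and Bbox1 -0.37 (the 1 called down) and -0.28. Crat, Tmlhe and Bbox1 are named after their values were seen.

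Betaine aldehyde, the intermediate of choline oxidation, is a substrate of both Aldh7a1 and Aldh9a1. Of 6 listed genes, 4 were measured. ETH called 1 down, the sarcosine dehydrogenase Sardh (-2.31 ± 0.23, adjusted p = 3.59e-11 in limma), and CIDB called 2 down, of which Pemt (-0.41), the maker of phosphatidylcholine, did not overlap with the vehicle. DES called none of the 4. PBO called all 4 down with a median of -1.05, and neither Aldh7a1 nor Aldh9a1 was called there (-0.27 and -0.20).

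Aldh1l1, the cytosolic 10-formyltetrahydrofolate dehydrogenase, also went both ways. Vehicle arrays spanned 11.88 to 12.95 with a median of 12.46. CPA arrays read 12.90, 13.01 and 12.93 against 12.07, 12.53 and 11.88 in CO4 (0.78 ± 0.14, adjusted p = 0.000123 in limma). DES arrays read 12.45, 11.87 and 11.90 against 12.74, 12.71 and 12.95 in MC5 (-0.73 ± 0.14, adjusted p = 0.000101 in limma). Neither group overlapped with its vehicle, and the DES arrays held 1 value well above the other pair. MC5 had the highest mean of the control sets for this gene, 12.80. With controls pooled by vehicle the DES fall was smaller, -0.48, and still called.

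DHEA arrays read 11.79, 11.70 and 11.61 against 12.38, 12.36 and 12.54 in MC1 (-0.73 ± 0.14, adjusted p = 0.000102 in limma). Wy arrays read 11.85, 11.56 and 11.79 (-0.69 ± 0.14, adjusted p = 0.000288 in limma). All 6 lay below MC1, and these are compounds in which Aldh3a2 rose. In 1 contrast, the rise under CPA and the fall under DHEA differed by 1.52 ± 0.20 (adjusted p = 1.98e-07 in limma), again a pair chosen by its values. PB gave 0.48 without overlap (adjusted p = 0.0669 in limma) and was called without MC6 replicate 3 (0.64, adjusted p = 0.0113).

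Cell-type markers moved in some of these comparisons. Under DHEA 4 of 7 measured hepatocyte markers were called down and under Wy 5 of 7, with medians of -0.21 and -0.27. Other compounds had such calls too. In either direction over the 15 compounds, Apoa1 and Fgb were called in 6 each. Cps1 was called in 4, Serpina1 in 3, Ttr in 2, and Alb and Tat in none. Of the macrophage markers 2 of 4 were called down under DHEA and under Wy. Under ETH 4 of 4 macrophage markers were called up, their mean log2 value rising to 10.72 to 10.73 over the ETH arrays from 9.03 to 9.46 in MC5. Under CPA 2 of 4 macrophage and both measured erythroid markers were called down. Of all probe sets 8.37% were called down for DHEA, 6.45% for Wy and 4.73% for CPA, and 11.7% were called up for ETH. Of 3 endothelial markers Kdr, a VEGF receptor, was called down under CPA (-0.90), DHEA (-0.79), DMN (-0.77), Wy (-0.71) and PBO (-0.66), and Pecam1 under Wy (-0.36) and TAA (-0.29). Of 7 stellate and matrix markers the collagen gene Col3a1 was called down under CPA (-1.59), DHEA (-1.18), DMN (-0.60) and Wy (-0.47) and up under Nif (0.72), ETH (0.45) and DES (0.42). Col1a2 was called down under DHEA (-0.89) and CPA (adjusted p = 0.000772 in limma). Col1a1, Lum and Timp1 were each called in 1 compound, and Acta2 and Des in none. The highest changes of Lum and Timp1, 1.07 and 1.02, were above those of the collagen genes. The part of these cells in the member values was not tested. Of 6 lymphocyte markers, 1 was called under ETH and 1 under DES and none elsewhere.

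Of 15 listed genes of folate and one-carbon metabolism, 11 were measured. DES called 1 up and 3 down, with the glycine decarboxylase Gldc (-1.07), the folate transporter Slc46a1 (-1.04) and the polyglutamate synthase Fpgs (0.62) the furthest from 0. DHEA called 2 up, Mthfd2 (0.47) and Fpgs (0.35), and 2 down, of which Slc46a1 fell by 0.87. Wy called 1 up, the thymidylate synthase Tyms (0.55), and 2 down, Slc46a1 (-0.95) and the histidine-to-folate enzyme Ftcd (-0.36). CPA called 1 up, Shmt1 (0.31), and none down. The medians of the 11 were 0.01, 0.09, -0.11 and 0.02.

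**Figure D3:**
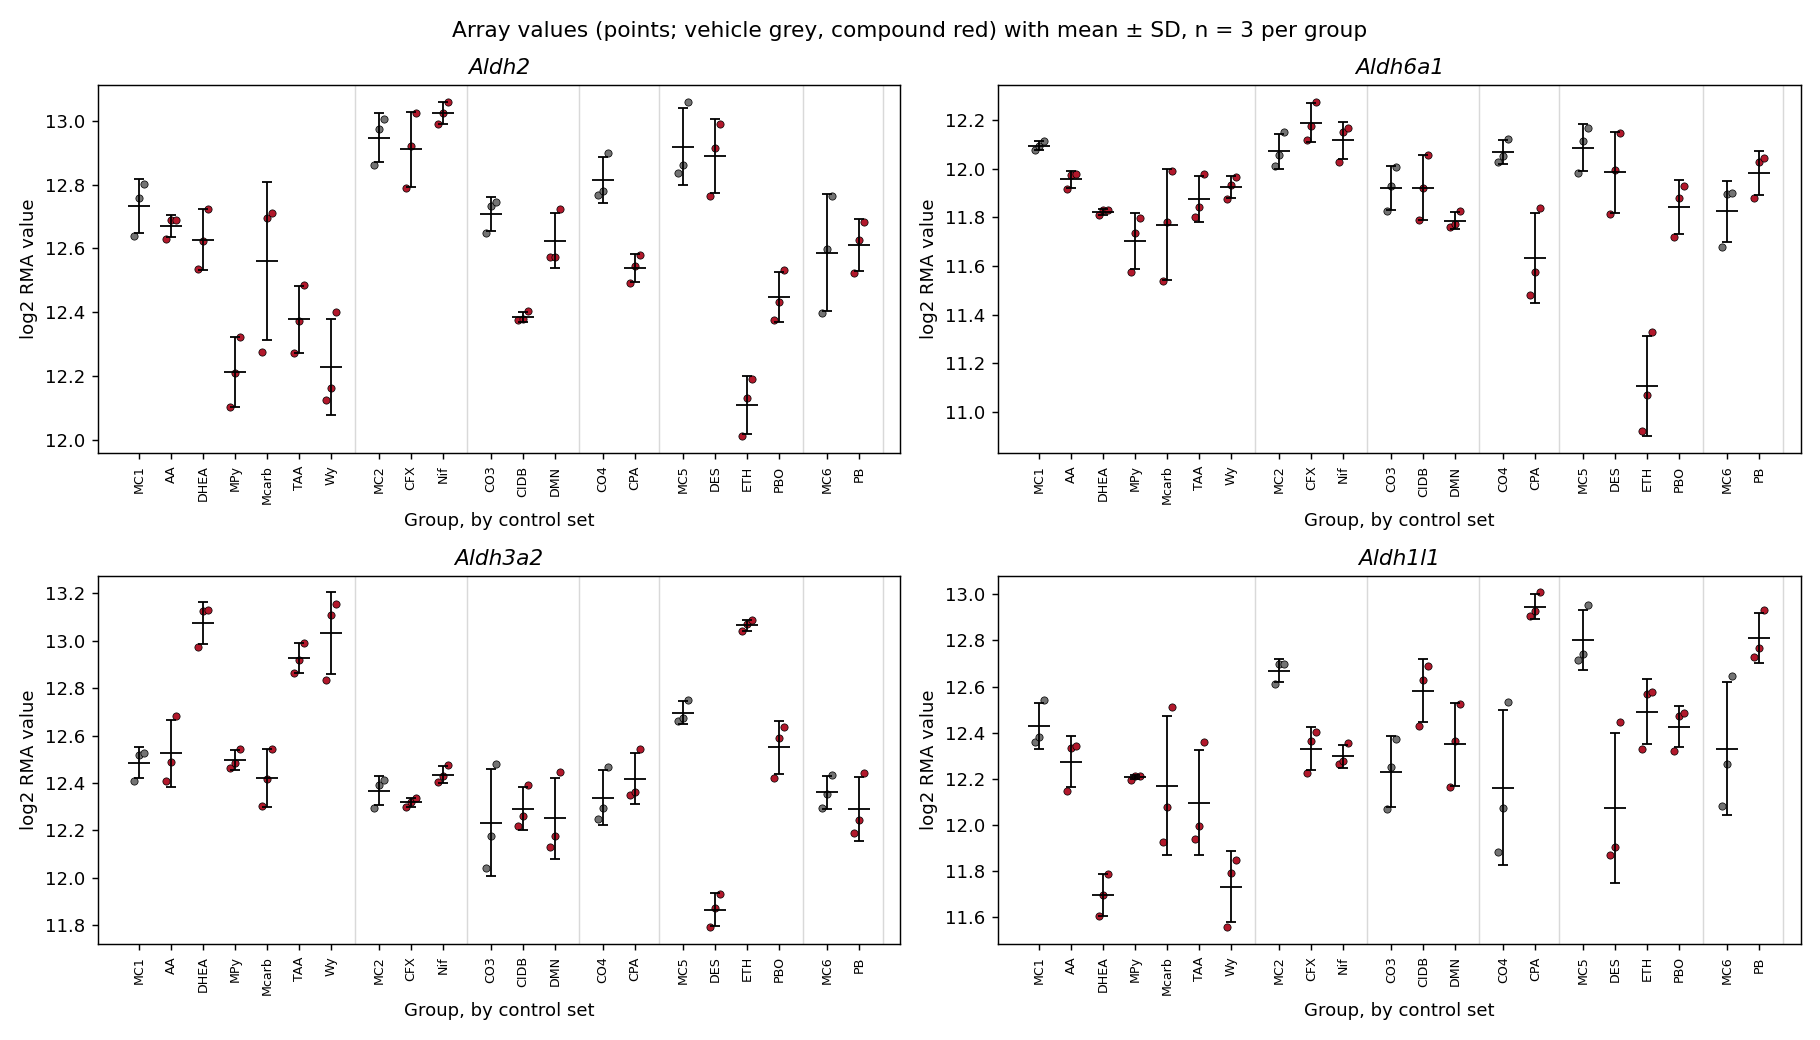
Aldh2, Aldh6a1, Aldh3a2 and Aldh1l1 on all 63 arrays: vertical axes give the log2 RMA value, groups stand by control set, points are arrays (vehicle grey, compound red), and bars give mean ± SD (n = 3). ETH is lowest for Aldh2 and Aldh6a1, Aldh3a2 is highest under DHEA, ETH and Wy and lowest under DES, and Aldh1l1 is lowest under DHEA and Wy and highest under CPA.

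Of 12 other listed genes of the family, 5 were measured: Aldh1a2, Aldh4a1, Aldh5a1, Aldh16a1 and Aldh18a1. They gave 10 calls in 75 comparisons, 5 up and 5 down, which is 13.3% against the 9.15% over all probe sets and compounds. The only one to reach a log2 fold change of 1 was Aldh5a1, the succinate semialdehyde dehydrogenase of GABA breakdown, which rose by 1.06 ± 0.10 under Wy (adjusted p = 5.28e-11 in limma). It also rose by 0.41 under DHEA and fell by 0.71 under DES. Aldh4a1, Aldh16a1 and Aldh18a1 differed from their vehicle by at most 0.46 where called, and Aldh1a2 was not called.

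Vehicle animals differed from set to set without any compound. Of 7 pairs of control sets with the same vehicle, MC5 against MC6 called 4 of 8 members, all higher in MC5, where 10.2% of probe sets were called. These were Aldh2 (0.33), Aldh3a2 (0.34), Aldh9a1 (0.31) and Aldh1l1 (0.47). Without MC6 replicate 1 and with array weights the count was 0. MC1 against MC6 called 1 (Aldh3a1, -0.45) against 7.77%, MC2 against MC5 called 1 (Aldh3a2, -0.33) against 2.72%, and MC2 against MC6 called 1 (Aldh2, 0.36) against 1.95%.

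MC1 against MC2, MC1 against MC5 and CO3 against CO4 called no member, against 0.914%, 2.14% and 0.466% of probe sets, with 1, 3 and 0 members at an unadjusted p under 0.05 in limma. Differences between control sets reached 1.54 for Aldh1a1 (MC2 above MC6, adjusted p = 0.0667 in limma) and at most 0.47 for the other 7 members. The called Aldh1a1 changes were all larger than that 1.54, whereas the called changes of the other members included values as small as -0.27 (Aldh6a1 under DHEA).

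Over all 63 arrays the genes most like each member were taken by Pearson correlation, a description in which arrays of a group, shared controls and the compounds themselves bind the points. For Aldh1a1 these were the glutathione S-transferase Gsta3 (0.80), Pdcl3 (0.77) and the carboxylesterase Ces2c (0.76). Taking the group means out left 0.64, 0.37 and 0.69, so that Gsta3 and Ces2c also varied with Aldh1a1 among animals of a group. For Aldh2 they were Elapor1 (0.80), N4bp2 (0.77) and Man2b1 (0.77), and for Aldh6a1 Ptprd (0.82), Slco2b1 (0.79) and Cfhr4 (0.79).

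For Aldh3a2 the closest were Stx4 (0.83), the glycerol-3-phosphate dehydrogenase Gpd1 (0.79) and Immt (0.78), and for Aldh1l1 Slc25a29 (0.64), Ttc36 (0.62) and Fads3 (0.61). For Aldh7a1 they were Ivd (0.66) and Echs1 (0.62), both enzymes of mitochondrial amino acid and fatty acid oxidation, and Myorg (0.60). With group means removed Ivd and Echs1 stood at 0.02 and 0.17 with Aldh7a1, and Slc25a29 and Fads3 at 0.15 and 0.07 with Aldh1l1, so these likenesses lie between groups and hardly among animals of a group. Aldh9a1 was closest to Golga4 (0.63), Slc4a1ap (0.58) and Polr2b (0.57). For the low signal of Aldh3a1 they were Lgals7 (0.62) and the epithelial keratins Krt4 (0.61) and Krt13 (0.59). Among the members themselves Aldh2 and Aldh6a1 were the most alike (0.68, and 0.25 with group means removed) and Aldh1a1 and Aldh2 the least (-0.64, and -0.30).

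The class question was put to compounds, not animals: the mean fold change of each compound against its vehicle entered as 1 value, with 8 NGC, 2 GC and 2 NC. Of the NGC, AA, DHEA, Mcarb and MPy share MC1, and DES, ETH and PBO share MC5. Their fold changes are therefore not independent, and the standard errors and p-values of the class fit take no account of this. No member was called in carcinogens against NC, NGC against GC or NGC against NC, where 0.0126%, 0.0819% and 0.0189% of probe sets were called. With an unadjusted p under 0.05 in limma there were 1, 0 and 1 members, Aldh1a1 both times. The 10 carcinogens had Aldh1a1 fold changes from 1.46 to 4.53 with a median of 3.28, and the NC compounds 0.22 and 0.40. The ranges did not overlap, and the difference was 2.82 ± 0.82 (adjusted p = 0.392 in limma). With controls pooled by vehicle it was 1.86 (adjusted p = 0.479 in limma), and the nearest compounds on either side, Mcarb at 1.49 and Nif at 1.26, then lay close together.

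NGC ranged from 1.46 to 4.53 and GC were 2.49 and 3.75, a difference of 0.00 ± 0.84 (adjusted p = 0.999 in limma). NGC and NC differed by 2.82 ± 0.84 (adjusted p = 0.309 in limma), and by 1.81 with pooled controls (adjusted p = 0.531). Both GC share CO3 and both NC share MC2, so class cannot be told apart from control set, nor GC from the corn oil vehicle. The 3 compounds of undefined class gave Aldh1a1 changes of 3.00 (CPA), 3.32 (TAA) and 3.84 (Wy), within the range of the carcinogens. Of the other members, Aldh9a1 and Aldh1l1 were lower in NGC than in GC by 0.26 ± 0.12 and 0.52 ± 0.24, neither called (adjusted p = 0.408 and 0.412 in limma).

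**Figure D4:**
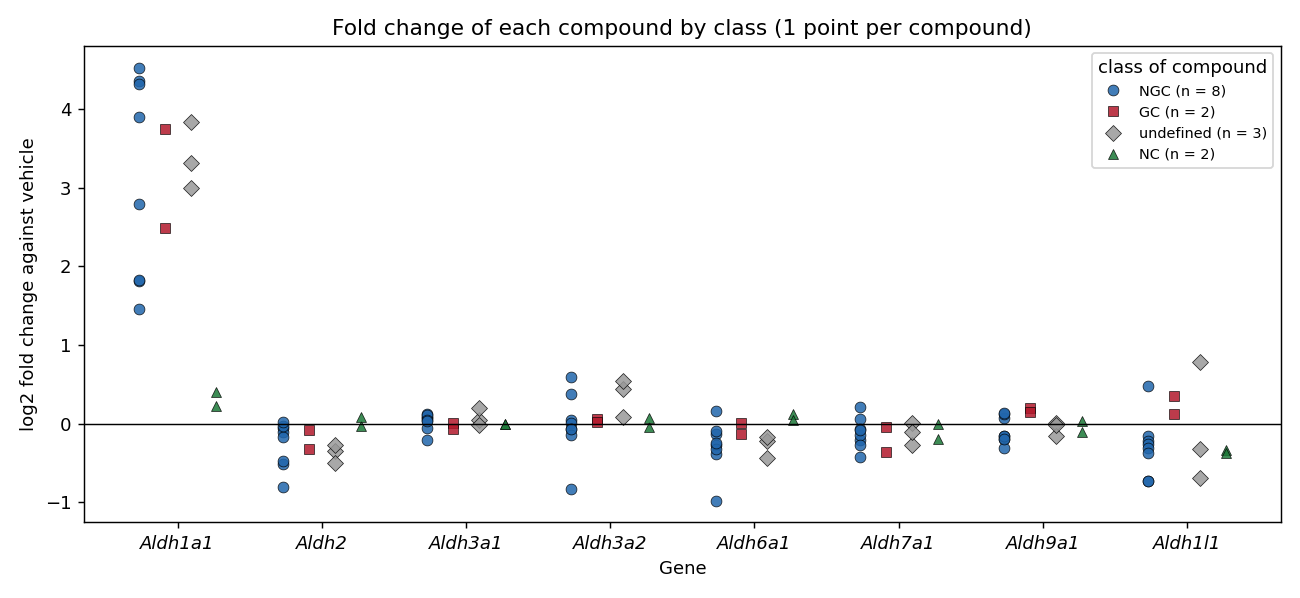
Log2 fold change against vehicle (vertical axis) of each member (horizontal axis), 1 point per compound, by class: NGC circles (n = 8), GC squares (n = 2), undefined diamonds (n = 3) and NC triangles (n = 2). Aldh1a1 lies between 1.46 and 4.53 for all compounds other than the NC pair at 0.22 and 0.40, and no member was called between classes.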

How the data were processed

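The deposited table holds log2 values for 15866 probe sets on 63 RAE230A arrays; per the labels and the study's methods the authors made them from scanner files by RMA (background correction, quantile normalization between arrays and probe summarization) with the affy package, whose version is not given in the sources used here. Groups came from the labels, and the class of a compound from the study's methods. By the platform annotation 12783 probe sets have 1 symbol, 312 several and 2771 none, and 10411 genes were named.

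Each compound was compared with the vehicle arrays of its control set in limma 3.58.1 (R 4.3.3) on the log2 scale, with 1 mean per group over all 63 arrays, empirical Bayes variances and Benjamini-Hochberg adjustment over all 15866 probe sets; class contrasts used compound means. The precision is set by 3 arrays a group. The code was tested on simulated data. Figures were drawn with matplotlib 3.10.9. The members and lists were chosen with earlier results of these data known. Named genes were the 8 members, the other family members called with a log2 fold change of at least 1, from each pathway list up to 3 of the largest called changes without overlap for each compound in which that pathway's member was called, and per member the 3 genes of highest correlation. Alternatives were other arrays in the fit, array weights, controls pooled by vehicle, median centring, quantile normalization again, a filter on dim probe sets, another variance prior, the second Aldh6a1 probe set, a replicate block, and each array or compound left out.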

Additional observations from a re-analysis of the deposited data

Results flagged for a closer look

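Opposite responses of 1 gene to different compounds, each called, were tested as the difference of the fold changes. Each pair was the largest called rise and the largest called fall of its gene. It was chosen by its values, so the p-values add no independent evidence. Aldh3a2 rose under DHEA (0.59) and fell under DES (-0.83), a difference of 1.42 ± 0.13 on the log2 scale (adjusted p = 3.61e-12 in limma). Aldh1l1 rose under CPA (0.78) and fell under DHEA (-0.73), a difference of 1.52 ± 0.20 (adjusted p = 1.98e-07 in limma). The compared compounds have different control sets, doses and vehicles or days of dosing, whose part was not tested.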

How the results depend on the processing

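The 35 calls kept their direction under every alternative run, other than Aldh6a1 under DHEA, which was 0.15 by the second probe set. Under median centring, the filter on dim probe sets and the other variance prior no call of a member was lost; centring moved the median of all fold changes by at most 0.04. Counts of members called that moved by over 1.5 times, or from or to 0, are given here, and smaller moves were, for instance, 2 to 3 for PBO in the fit on 6 arrays alone, 3 to 4 for CIDB and TAA with array weights and 5 to 6 for ETH with pooled controls. In the fit on 6 arrays alone, with array weights and with pooled controls Nif had 1; with array weights MC5 against MC6 had 0; with pooled controls Mcarb had 2 and TAA 5; after a second quantile normalization PB had 2; with the other Aldh6a1 probe set AA had 2 and Nif 1. With 1 array left out the count ranged from 0 to 1 for AA and for MC2 against MC5, from 0 to 2 for Mcarb, MC1 against MC6 and MC2 against MC6, from 1 to 2 for PB and from 0 to 4 for MC5 against MC6, the 0 being the fit without MC6 replicate 1. With pooled controls the Aldh1a1 difference of carcinogens from NC was 1.86 and that of NGC from NC 1.81. The Aldh1a1 difference between NGC and GC was -0.26 with pooled controls and ranged from -0.63 to 0.64 with 1 compound left out, and was called in none of these. Replicate numbers are shared with the controls only for PB and CPA, and same-numbered arrays did not deviate together (correlations from -0.15 to 0.17), so the numbers were not taken as pairs; with the replicate block PB had 1 member called and CPA 3, Aldh2 being lost (-0.28, adjusted p = 0.0627 in limma). With 3 arrays a group, small changes of single members lie near the limit of detection.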
